A study of Mus musculus with 24 samples.

Results

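The comparison described here sets liver cells that had taken up an injected empty liposome against cells of the same sort that had not. Female C57BL/6 mice were kept for 2 weeks on food that lacks methionine and choline, which brings on steatohepatitis, and were then given liposomes carrying DiI, a membrane dye, into a vein. After 24 hours, CD11c+ MHC class II+ liver cells were sorted as DiI-positive or DiI-negative, and their RNA was sequenced after low-input cDNA amplification. The tests below compare the 6 libraries from mice given empty liposomes, of 12 libraries in all. They are 3 DiI-positive and 3 DiI-negative libraries, chosen by their library codes, and each code is shared by 2 sample records. The spread behind each SE and p-value was estimated from all 12 libraries. All the mice had eaten the deficient diet and all had received liposomes, so no library stands for a healthy or an uninjected liver. The other 6 libraries come from mice given DiI-labelled curcumin liposomes and sorted the same way. The deposited values are on a log2 scale that shrinks low values, so a difference understates the change of a gene with few reads. The genes tested averaged 4 or more over the 12 libraries, which are 14227 of the 24874 genes that were not at 0 in every library. Nothing in the labels ties the 3 libraries of a gate to different animals, so each p-value reflects library-to-library spread that could be technical.

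As background, blood passing through the liver meets Kupffer cells, resident macrophages that line the sinusoids and clear particles with scavenger and complement receptors. CD11c and MHC class II are carried by conventional dendritic cells, and also by activated macrophages and by some B cells. B-1 cells are innate-like B cells whose antibodies come from a small set of V segments used with few changes. Antibodies that join Ighv11-2 with Igkv14-126, or Ighv12-3 with Igkv4-91, are known from B-1 cells that bind phosphatidylcholine, a common membrane lipid. The sources used here do not name the lipid of these liposomes.

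The V segments are shown because Ighv11-2 and Igkv14-126 were among only 3 genes, with the hormone gene Adm, that passed the test in the fit as reported and in each of 18 alternative analyses. The last 120 bases of each germline segment, taken from the GENCODE M21 transcripts of GRCm38, read 5′ to 3′ as follows. Capitals mark the codon of the conserved cysteine, found by its sequence context, and the germline bases after it that begin the third antigen-contact loop.
Ighv11-2: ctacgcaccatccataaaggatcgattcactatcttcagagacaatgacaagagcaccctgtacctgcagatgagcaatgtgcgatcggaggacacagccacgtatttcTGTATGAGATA
Igkv14-126: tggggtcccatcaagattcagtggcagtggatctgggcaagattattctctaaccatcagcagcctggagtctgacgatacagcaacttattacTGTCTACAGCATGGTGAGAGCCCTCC
Ighv12-3: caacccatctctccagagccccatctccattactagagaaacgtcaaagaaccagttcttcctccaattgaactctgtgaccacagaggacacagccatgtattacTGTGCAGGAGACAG
Igkv4-91: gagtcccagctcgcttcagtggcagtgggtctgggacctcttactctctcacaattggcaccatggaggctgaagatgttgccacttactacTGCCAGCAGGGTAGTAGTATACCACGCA
Ighv11-2 lies on chromosome 12 (114048241 to 114048812, minus strand) and Igkv14-126 on chromosome 6 (67896172 to 67896642, plus strand). Ighv12-3 is on chromosome 12 (114366521 to 114366954, minus strand) and Igkv4-91 on chromosome 6 (68768555 to 68769103, minus strand). In the capitals, Ighv11-2 has 11 germline bases from the cysteine codon on, and Igkv14-126 has 26.

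The heavy chain segment Ighv11-2 had the lowest adjusted p of all genes and was higher in every DiI-positive library. Its log2 values were 9.98, 8.93 and 9.75 in the DiI-positive libraries and 5.59, 6.00 and 5.80 in the DiI-negative libraries. The groups did not overlap, and the lowest DiI-positive library stood well above the highest DiI-negative one. The difference was 3.76 ± 0.26 (SE, 3 against 3 libraries), or 13.5-fold on this scale, with a limma adjusted p of 0.00016. Leaving out any 1 library gave differences from 3.54 to 4.07 (highest limma adjusted p = 0.00236). Its nearest relative in the annotation, Ighv11-1, matches it in 99.2% of the last 250 bases. Ighv11-1 was listed between 2.73 and 2.95 in the 6 libraries, below the filter, and the sources used here do not say how reads were divided between them. After curcumin liposomes, in libraries that entered only the filter and the shared spread above, Ighv11-2 differed by 2.62 ± 0.26 (limma adjusted p = 0.0021).

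The kappa segment Igkv14-126, known as its partner in phosphatidylcholine-binding antibodies, was higher as well. It stood at 8.70, 7.91 and 8.62 in DiI-positive and at 5.89, 6.14 and 6.03 in DiI-negative libraries. For both segments DiI-positive replicate 2 was the lowest of its group. The difference was 2.39 ± 0.23 (limma adjusted p = 0.0013), between 2.25 and 2.64 with any 1 library left out, and 1.56 ± 0.23 after curcumin liposomes. The second such pair moved less. Ighv12-3, chosen with Igkv4-91 after their values were seen, was at 4.81, 4.83 and 4.83 against 4.41, 4.34 and 4.34, low levels on this scale. Its difference of 0.46 ± 0.07 passed (limma adjusted p = 0.0081), and it was 0.06 ± 0.07 after curcumin liposomes. Igkv4-91 stood at 6.66, 6.52 and 6.78 against 6.15, 5.98 and 6.18 and did not pass (0.55 ± 0.17, limma adjusted p = 0.11). No gene, these segments included, passed the limma test of a difference between the uptake effects of the 2 liposomes (smallest adjusted p = 0.999). In that test 527 of 14227 genes had an unadjusted p under 0.05, a share below the 0.05 that chance alone would give.

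**Figure D1:**
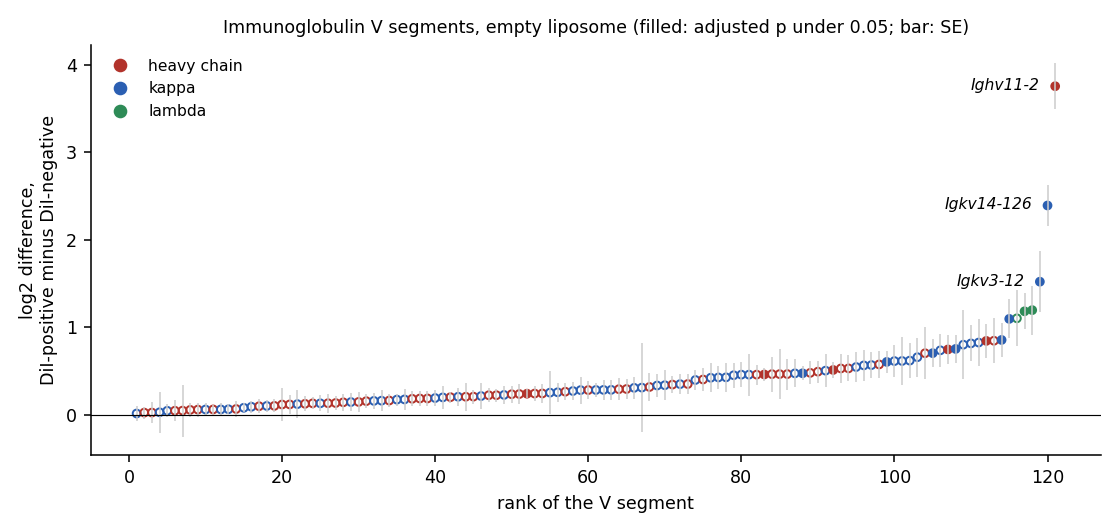
Difference in deposited log2 value between the DiI-positive and the DiI-negative gate, empty liposome, for the 121 immunoglobulin V segments tested, ordered by size (y axis: log2 difference, with SE as bars; x axis: rank). Every point lies above 0, filled points passed the limma test, and Ighv11-2 at 3.76 and Igkv14-126 at 2.39 stand above the rest.

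Every other immunoglobulin V segment leaned the same way, most of them slightly. All 121 V segments tested had a positive difference, with a median of 0.283, against 0.0038 over all genes tested, and 16 of them passed. Over all 142 immunoglobulin segments, with the J and constant genes, 22 were higher and none lower, while 1.32% of all genes tested were called higher and 1.62% lower. After those above, the largest V segment differences were Igkv3-12 (1.52 ± 0.35, limma adjusted p = 0.042) and the lambda segments Iglv3 (1.20 ± 0.28) and Iglv2 (1.18 ± 0.21). Igkv3-12 rested partly on 1 library, with 7.63, 8.75 and 7.47 against 6.36, 6.37 and 6.55. Of the 22 segments that passed, Ighv11-2, Igkv14-126, Ighv12-3 and the IgM constant gene Ighm did so with any 1 library left out. The count of the 22 still called ran from 4 without DiI-negative replicate 1 to 11 without DiI-positive replicate 3. V segments share sequence and bulk counts of them are uncertain where copies are near identical, so small differences among them are not set apart here.

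The constant genes showed which antibody classes the B cell RNA carried. Ighm, the constant region of IgM, was at 16.39, 16.35 and 16.14 in DiI-positive libraries and at 14.89, 14.95 and 15.13 in DiI-negative libraries. The values were tight within each gate and did not overlap (1.30 ± 0.20, limma adjusted p = 0.0085). Ighd, the constant region of IgD, was at 14.53, 14.80 and 14.38 against 13.21, 13.36 and 13.41. It differed by a similar amount, without overlap, but did not pass (1.25 ± 0.32, limma adjusted p = 0.063). Ighg1, Ighg2c and Ighe were not among the genes tested. Jchain, which links IgM and IgA into polymers, stood at 8.15, 8.40 and 8.28 against 5.80, 5.82 and 5.82 (2.46 ± 0.49, limma adjusted p = 0.026). Its spread was wider in the curcumin libraries that share the variance, and it missed the threshold with any 1 empty library left out (adjusted p from 0.061 to 0.089). Among the class-switched genes, chosen after their values were seen, Igha had 7.60, 7.47 and 6.91 against 4.88, 6.01 and 5.37 and did not pass (limma adjusted p = 0.53). Ighg2b stood at 10.59 in DiI-positive replicate 3 but at 6.41 and 6.96 in the other DiI-positive libraries, which overlapped the DiI-negative ones at 6.52, 7.27 and 7.0.

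General B cell genes were higher with them. Of 20 B cell identity genes, 11 rose and none fell, all 20 had non-overlapping libraries with the DiI-positive ones higher, and the list median was 1.22. Of all genes tested, 12.3% had non-overlapping libraries in that direction. The range of the list was narrow, from 0.67 to 1.31. Blnk, the linker that carries the B cell receptor signal, was at 12.07, 12.11 and 11.69 against 10.78, 10.78 and 10.73 (1.20 ± 0.16, limma adjusted p = 0.0047). High levels of Ighm in both gates show that B cell RNA was present in the libraries labelled as dendritic cells. Blnk, Ighm, Ebf1 and Fcrla stayed past the threshold with any 1 library left out, and as few as 4 of the 11 did so without DiI-positive replicate 2 or DiI-negative replicate 1 or 2. In bulk RNA, more cells of a type and more RNA per cell cannot be told apart.

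**Figure D2:**
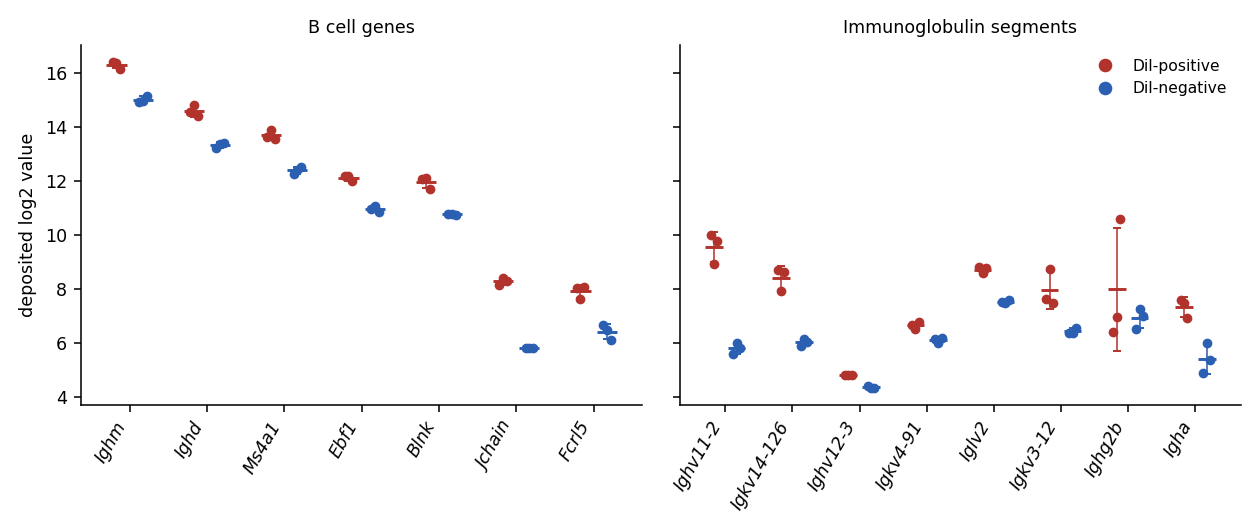
Deposited log2 values of B cell genes and immunoglobulin segments in each empty liposome library (red: 3 DiI-positive; blue: 3 DiI-negative; bar and whisker: mean and SD). Ighv11-2 and Igkv14-126 are far apart between gates, Ighm and Blnk are tightly separated, and Ighg2b is high in 1 DiI-positive library at 10.59.

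Genes known from B-1 cells did not move as a block. Of 20 tested, 2 rose and none fell, 12 had a positive difference, and the list median was 0.075. An unadjusted limma p under 0.05 was found for 9 of them, 5 higher and 4 lower. Non-overlapping libraries were found for 5 higher and 3 lower genes. The 3 lower ones were Tppp3 (-1.03 ± 0.295), Itgam (-0.52 ± 0.15) and Spn (-0.46 ± 0.15). None of these 3 passed (limma adjusted p from 0.088 to 0.13). The Fc receptor-like gene Fcrl5, a marker of innate-like B cells, was at 8.02, 7.64 and 8.09 against 6.65, 6.48 and 6.11, with no overlap (1.5 ± 0.25, limma adjusted p = 0.011). The inhibitory receptor Ctla4 rose by 0.56 (limma adjusted p = 0.045) and passed in none of the runs that leave out 1 library. Bhlhe41, a transcription factor that B-1 cells need, was separated at 6.98, 6.69 and 6.70 against 6.25, 6.52 and 5.95 but did not pass (0.55 ± 0.16, adjusted p = 0.097). The surface antigen Cd5, chosen after its values were seen, overlapped between gates (0.17 ± 0.17, adjusted p = 0.67). Several genes of this list, such as Itgam and Ahr, are also expressed by myeloid cells. Of 19 follicular and marginal zone B cell genes 3 rose, the chemokine receptor Cxcr5, the lipid-presenting Cd1d1 and Mzb1, with a list median of 0.49. The list of 21 chemokine and other trafficking receptors had 3 rises, 2 falls and a median of -0.10, with 9 positive differences. S1pr1 (1.21 ± 0.22), Cxcr5 (1.18 ± 0.26) and Ccr7 (1.02 ± 0.20) rose, with limma adjusted p from 0.017 to 0.037. Cxcr6 (-1.33 ± 0.22, limma adjusted p = 0.011) and Ccr2 (-0.58 ± 0.11, adjusted p = 0.023) fell. Of these 5, Cxcr6 alone kept its call in all 6 runs that leave out a library.

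The Kupffer cell genes held the largest difference of all, 4.52 for the lectin Clec4f, but they varied widely among the DiI-positive libraries. Clec4f was at 11.54, 13.45 and 14.08 in DiI-positive and at 7.97, 8.80 and 8.75 in DiI-negative libraries. Cd5l, a secreted macrophage protein, was at 12.37, 12.81 and 14.37 against 10.40, 9.67 and 10.16. Marco, a scavenger receptor, was at 9.05, 9.60 and 12.38 against 7.08, 6.04 and 6.35. In each of them DiI-positive replicate 1 was lowest and replicate 3 highest, and the gates did not overlap. Timd4, a phosphatidylserine receptor of resident macrophages, and the complement gene C6 showed the same spread more strongly. Timd4 was at 5.85, 8.63 and 10.34 against 5.61, 5.60 and 5.66, so that replicate 1 lay near the DiI-negative level. Timd4 did not pass (2.65 ± 0.90, limma adjusted p = 0.14), and it did without DiI-positive replicate 1 (3.86, adjusted p = 0.021). C6 was at 5.65, 8.42 and 9.52 against 5.40, 5.52 and 5.45 (limma adjusted p = 0.098).

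Over the list of Kupffer surface and secreted genes, 12 of 27 rose, none fell, and the median was 1.49. The mean log2 value of the list was 9.27, 10.04 and 10.81 in DiI-positive libraries and 8.43, 8.41 and 8.62 in DiI-negative libraries, and 1 of its 28 genes, Lrp2, was listed at 0 in every library. Il18bp, which neutralises interleukin-18, had the smallest p of the list, at 10.33, 10.68 and 11.11 against 8.08, 8.03 and 8.41 (2.53 ± 0.26, limma adjusted p = 0.0015). Clec4f, Il18bp, Clec1b and the kinase gene Dmpk passed with any 1 library left out. The number still called was 12 without DiI-positive replicate 1 and 5 without DiI-negative replicate 1. Marco missed without any 1 DiI-negative library (adjusted p from 0.065 to 0.094). Some Kupffer genes overlapped between gates. The growth factor receptor Csf1r was at 15.79, 15.64 and 16.12 against 15.72, 15.80 and 15.78. The hemoglobin scavenger Cd163 was at 7.01, 9.81 and 9.89 against 9.04, 8.33 and 8.96. Both were picked once their values had been seen.

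The transcription factors of Kupffer cells held 1 call. Of 22 tested none rose by limma, and Cebpb fell by 0.48 (adjusted p = 0.039, lost with any 1 library left out). An unadjusted limma p under 0.05 was found for 10 of them, 7 higher and 3 lower. Non-overlapping libraries were found for 6 higher and 6 lower genes, against 12.3% and 14.5% of all genes tested. Their median of 0.103 turned negative in 4 of the alternatives, among them -0.10 without DiI-negative replicate 1. Nr1h3, which encodes the sterol sensor LXR alpha, was at 11.89, 11.89 and 12.83 against 10.94, 11.43 and 11.42 (0.94 ± 0.34, adjusted p = 0.16). Spic, a factor of iron-recycling macrophages, was at 10.81, 10.24 and 10.66 against 9.52, 9.77 and 9.88 (0.85 ± 0.21, adjusted p = 0.055). Spi1, in the same list, was lower at 12.855, 12.77 and 12.99 against 13.20, 13.34 and 13.35 (-0.43 ± 0.11, adjusted p = 0.063). The gates did not overlap for Nr1h3, Spic or Spi1.

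**Figure D3:**
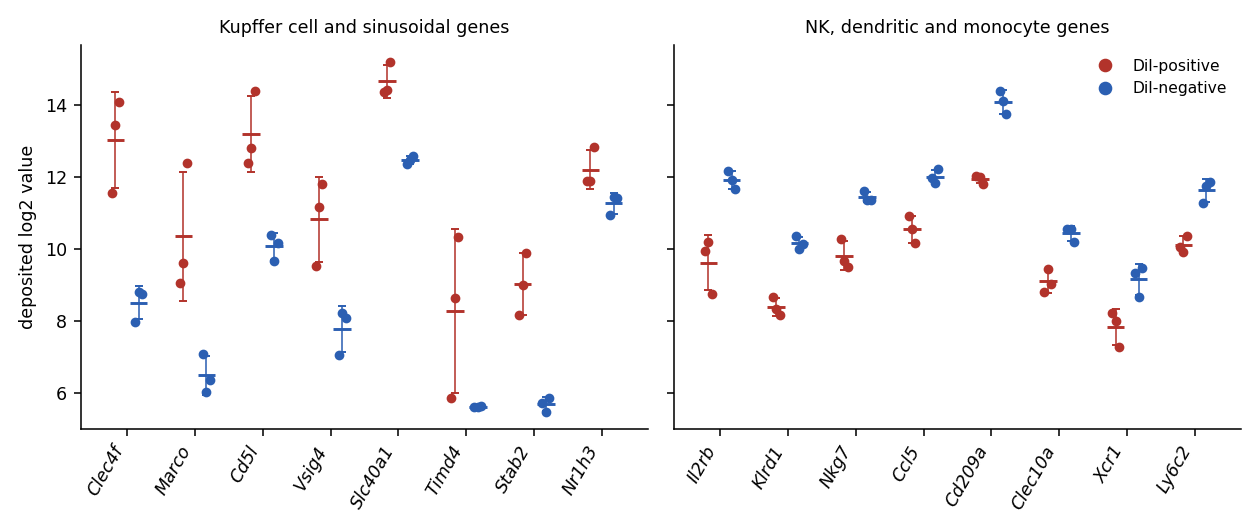
Deposited log2 values of Kupffer cell and sinusoidal genes (left) and of NK, dendritic cell and monocyte genes (right) in each empty liposome library (red: DiI-positive; blue: DiI-negative; bar and whisker: mean and SD of 3). Clec4f, Marco and Timd4 spread widely among the DiI-positive libraries, while Cd209a, near 12 in DiI-positive and 14 in DiI-negative cells, is tight.

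The promoter of Cd5l and that of Hmgcs1, a sterol synthesis gene described below, are printed because they hold the searched motifs in genes that moved in opposite directions. Each is the 250 bases before the RefSeq start on GRCm38.p6, with capitals for the motif matches, and no annotated exon lies in either window. Cd5l is at chr3:87357631-87357880 on the plus strand and Hmgcs1 at chr13:119690101-119690350 on the plus strand.
Cd5l: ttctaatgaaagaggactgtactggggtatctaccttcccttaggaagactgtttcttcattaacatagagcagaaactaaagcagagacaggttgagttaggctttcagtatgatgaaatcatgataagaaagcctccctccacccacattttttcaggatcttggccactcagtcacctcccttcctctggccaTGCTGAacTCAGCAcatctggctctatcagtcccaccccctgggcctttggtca
Hmgcs1: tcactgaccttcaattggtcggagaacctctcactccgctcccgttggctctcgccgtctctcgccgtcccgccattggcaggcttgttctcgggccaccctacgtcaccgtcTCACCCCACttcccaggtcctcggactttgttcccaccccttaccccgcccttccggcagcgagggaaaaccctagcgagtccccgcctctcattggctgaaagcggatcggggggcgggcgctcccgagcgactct
The capitals in Cd5l are the letters TGCTGA, part of the site bound by MAF factors, once on each strand, beginning 54 and 46 bases before the start. Those in Hmgcs1 are TCACNCCAC, the sterol response element bound by SREBP, beginning 137 bases before the start. TGCTGA on either strand was in 4 of the 10 promoters found for called Kupffer genes, those of Cd5l, Clec4f, Fcna and Folr2, in 3 of the 10 promoters of called NK genes, in 2 of the 7 of called B cell genes, and in 15.9% of all 27025 promoters in the table. TCACNCCAC was in 1.03% of them, and Hmgcs1 was the only called sterol gene with an entry. The PU.1 motif GAGGAAGT (2.46% of all promoters) was in none of the Kupffer or B cell promoters and in 1 NK promoter, and the palindromic EBF1 motif (0.78%) was in none of these groups. The T-box letters AGGTGT (12.1%) were in 1 NK, 1 Kupffer and 2 B cell promoters, and the E-box letters CAGCTG (12.9%) were in none of these groups. The windows were searched on both strands, and a match is a description of letters only.

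Other groups that Kupffer cells are known for were partly higher. Among 17 LXR target and lipid efflux genes, 4 rose and none fell, with a median of 0.42. Scd1, the desaturase that makes monounsaturated fatty acids, was at 12.98, 12.97 and 12.86 against 11.26, 11.56 and 11.64 (1.45 ± 0.21, limma adjusted p = 0.0063). Scd1 kept its call with any 1 library left out, whereas Abca1, Pltp and Apoc1 did not. The DiI-positive values of Scd1 lacked the climb from replicate 1 to replicate 3 seen in Clec4f. Which cells its RNA came from was not tested. In a list of 20 iron and heme genes 3 rose, the exporter Slc40a1, the heme binder Hpx and the reductase Blvrb, with a list median of 0.15. Slc40a1 was at 14.35, 14.41 and 15.19 against 12.36, 12.46 and 12.58 (2.19 ± 0.35, adjusted p = 0.010, and 0.051 without DiI-negative replicate 1). Of 20 complement genes, the receptor Vsig4 and the decay factor Cd55 rose. The complement median was 0.51, and 0.28 without DiI-positive replicate 3. Cd55 is also carried by B cells (1.42 ± 0.25). The initiator genes C1qa, C1qb and C1qc had differences of 1.17, 1.13 and 1.10 and did not pass (limma adjusted p from 0.11 to 0.13).

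Markers of sinusoidal endothelial cells, which also clear particles from blood, leaned higher in DiI-positive libraries, most in replicate 3. Their mean log2 value was 7.25, 7.61 and 7.82 against 7.05, 7.03 and 7.065. Non-overlapping libraries with the DiI-positive ones higher were found for 8 of 19 genes, against 12.3% of all genes tested. Of 19 tested only the adhesion gene Pecam1, which leukocytes also carry, rose (0.88 ± 0.13, limma adjusted p = 0.0079), and it did so with any 1 library left out. The endothelial scavenger receptor Stab2 was at 8.16, 9.0 and 9.90 against 5.73, 5.49 and 5.87 without passing (3.33 ± 1.20, adjusted p = 0.17). The list median of 0.47 was 0.16 without DiI-positive replicate 3. Of 16 hepatocyte genes 14 had a positive difference, with a median of 0.17. The heme binder Hpx, also in the iron list, rose (0.66 ± 0.15, adjusted p = 0.039) and was lost with any 1 library left out, and albumin (Alb) overlapped at 8.32, 8.04 and 9.03 against 7.58, 7.72 and 8.77. The part of RNA from these cells in the results was not tested.

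Genes of NK and other cytotoxic cells were lower in DiI-positive cells. Of 30 tested, 15 fell and none rose, all 30 differences were negative and the median was -1.12. Il2rb, a receptor chain for interleukin-2 and interleukin-15, was at 9.94, 10.18 and 8.74 against 12.15, 11.92 and 11.67, a fall of 4.89-fold on this scale (limma adjusted p = 0.0047). The NK receptor subunit Klrd1 was at 8.66, 8.33 and 8.16 against 10.36, 10.003 and 10.12. The granule gene Nkg7 was at 10.27, 9.68 and 9.49 against 11.60, 11.37 and 11.37. The gates were far apart for all 3. Klrd1, Klrc1, Nkg7, Ccl5, Il2rb and Ctsw passed with any 1 library left out, and the number still called ran from 6 without DiI-negative replicate 1 to 13 without DiI-positive replicate 1. The killer lectin family, taken whole by symbol after its values were seen, had 9 of 20 members lower and no positive difference. The mean log2 value of the NK list was 7.83 to 8.34 in DiI-positive and 9.08 to 9.41 in DiI-negative libraries.

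Of 24 T cell genes tested 4 fell and none rose, the signalling genes Skap1 and Lck and the receptor constant genes Trbc1 and Trbc2, and the median was -0.24. Skap1, an adaptor of antigen receptor signalling, was at 7.71, 7.30 and 7.53 against 9.07, 8.69 and 9.02 (-1.41 ± 0.17, limma adjusted p = 0.0047). Of 12 T cell receptor segments 5 fell and none rose. Cd3e, chosen after its values were seen, overlapped at 6.32, 6.84 and 6.65 against 6.49, 6.85 and 7.10.

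The dendritic cell lists, for the labelled cell type, held calls in both directions. Of 16 cDC2 genes 4 fell and none rose, with a median of -0.20. Among these 4, Cd7 is also in the NK list and Fcer1a also in the basophil and mast cell list. Cd209a, a lectin of monocyte-derived and conventional dendritic cells, was at 12.02, 11.99 and 11.82 against 14.39, 14.11 and 13.74. The groups were 4.40-fold apart on this scale (limma adjusted p = 0.0047), and this call held with any 1 library left out. The lectin Clec10a was at 8.82, 9.44 and 9.04 against 10.56, 10.56 and 10.19 (-1.34 ± 0.24, adjusted p = 0.015), while the cDC2 transcription factor Irf4, chosen after its values were seen, overlapped (-0.01 ± 0.27). Of 16 cDC1 genes none passed by limma and 5 had an unadjusted p under 0.05, although 11 had non-overlapping libraries that were lower in DiI-positive cells, against 14.5% of all genes tested, and the median was -0.58. The cDC1 chemokine receptor Xcr1 was at 8.23, 7.99 and 7.28 against 9.33, 8.67 and 9.46 (adjusted p = 0.33). Fitting the depth index as a covariate gave a median of -0.35. Of 16 plasmacytoid dendritic cell genes Spib and Ly6d, which B cells also express, rose (1.24 ± 0.22 and 1.22 ± 0.22) and none fell, with a median of -0.15. Each of the 2 calls was lost in 3 of the 6 runs that leave out a library. Of 17 genes of mature migratory dendritic cells Ccr7 rose, Ccl22 and Ccl5, which is also in the NK list, fell, and the median was -0.019. Further dendritic genes, chosen after their values were seen, were separated without passing. The growth factor receptor Flt3 was at 10.74, 10.37 and 10.66 against 12.49, 12.25 and 12.002 (-1.66 ± 0.45, adjusted p = 0.077). The transcription factor Zbtb46 was at 9.70, 9.16 and 8.87 against 11.05, 10.62 and 10.50 (-1.48 ± 0.72, adjusted p = 0.31).

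The genes of the sorting gate were high on this scale in all 6 libraries. Itgax, which encodes CD11c, was at 12.93, 12.01 and 12.68 against 13.47, 13.16 and 13.05 (-0.69 ± 0.25, limma adjusted p = 0.16). The class II gene H2-Ab1 was at 17.77, 17.81 and 17.79 against 17.98, 17.96 and 18.05 (-0.21 ± 0.09, adjusted p = 0.23). Within the class II pathway the loading factor gene H2-DMb1 fell (-0.41 ± 0.08, adjusted p = 0.017). H2-Ob, part of its inhibitor and abundant in B cells, rose (0.96 ± 0.20, adjusted p = 0.032). The other 15 of the 17 class II genes did not pass, and the median of 0.030 was -0.026 without DiI-negative replicate 1. Among those 15, H2-DMb2 went the opposite way to H2-DMb1, without overlap. It was at 13.15, 13.25 and 12.96 against 12.13, 12.23 and 12.45 (0.85 ± 0.21, limma adjusted p = 0.060). Neither class II call was left without DiI-positive replicate 2 or without any 1 DiI-negative library.

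**Figure D4:**
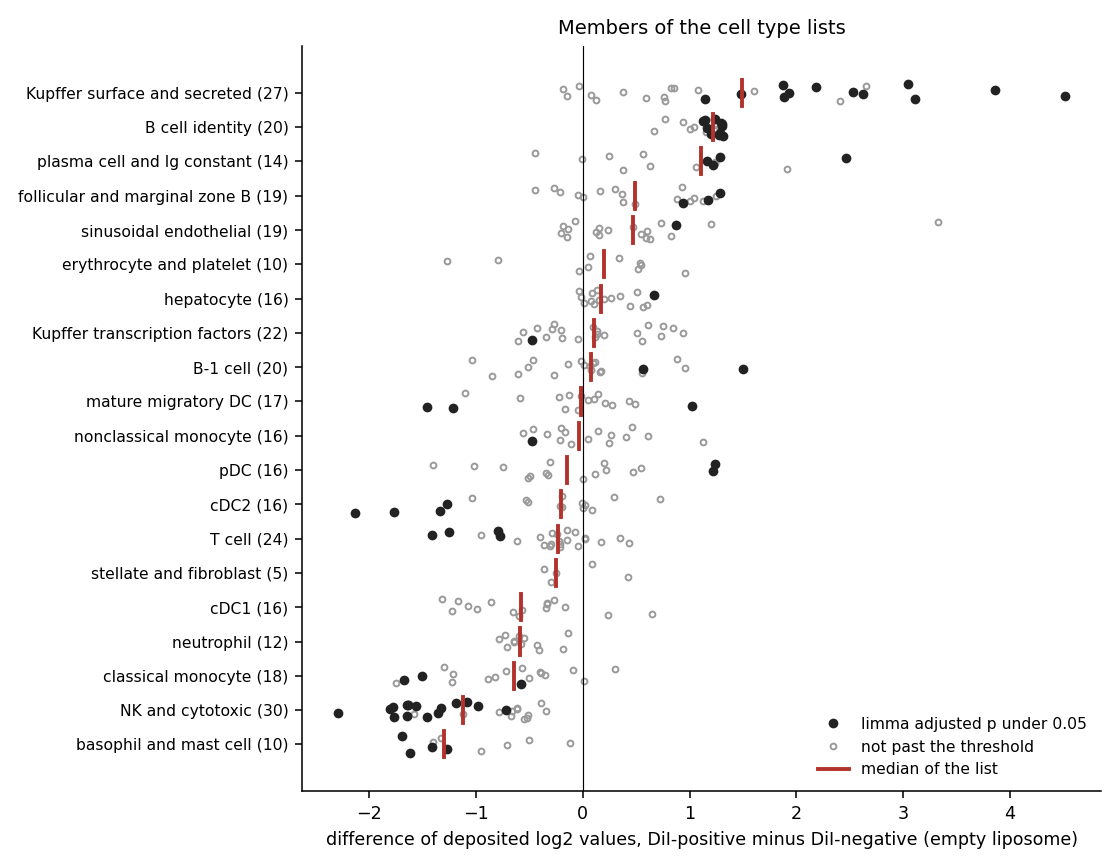
Members of the 20 cell type lists, each point a gene (x axis: log2 difference, DiI-positive minus DiI-negative, empty liposome; number of genes tested in brackets). Filled points passed the limma test and the red line is the list median, from 1.49 for Kupffer surface genes to -1.30 for basophil and mast cell genes.

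The other myeloid lists differed in direction. Of 18 classical monocyte genes 3 fell, the surface antigen Ly6c2, the chemokine receptor Ccr2 and F13a1, 15 were separated and lower (14.5% of all genes tested), and the median was -0.65. Ly6c2 was at 10.05, 9.93 and 10.37 against 11.27, 11.74 and 11.86 (-1.51 ± 0.27, limma adjusted p = 0.015). None of the 3 kept its call in all 6 runs that leave out a library. Of 16 nonclassical monocyte genes only Cebpb fell, none rose, and the median was -0.034. Of 16 lipid-associated macrophage genes Mmp12 and Pld3 rose and none fell, with a median of 0.53, and the Pld3 call was lost with any 1 library left out. Of 12 neutrophil genes none passed by limma, 2 had an unadjusted p under 0.05, and the median was -0.59. Of 10 basophil and mast cell genes 4 fell, with the lowest list median, -1.30. The basophil protease Prss34 was at 6.21, 5.38 and 5.37 against 7.11, 7.06 and 7.87 (-1.69 ± 0.29, adjusted p = 0.014, 0.051 without DiI-negative replicate 3 and 0.057 without DiI-positive replicate 2). Prss34 differed by only -0.20 ± 0.29 after curcumin liposomes. Gata2, a transcription factor of basophils and mast cells, was at 6.17, 5.95 and 6.00 against 7.40, 7.62 and 7.35. The high-affinity IgE receptor chain Fcer1a, which is also in the cDC2 list, was at 5.63, 5.63 and 5.62 against 6.88, 6.88 and 6.92. These levels lie low on this scale, and the call of this list was 0 of 4 without DiI-positive replicate 2 or DiI-negative replicate 3.

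Of the next 6 genes only the integrin subunit Itgb7 stood in a list, and the rest were picked once their values had been seen, so they stand for no wider group. The membrane-binding annexin Anxa2 was at 12.997, 12.82 and 12.94 against 13.94, 14.07 and 14.24 (-1.16 ± 0.15, limma adjusted p = 0.0047). Anxa1 (-1.04 ± 0.14), the focal adhesion gene Zyx (-0.98 ± 0.13), the actin-binding Lsp1 (-0.74 ± 0.09) and the selectin ligand Selplg (-0.91 ± 0.12) fell with the same adjusted p. Itgb7 did too (-0.79 ± 0.11). All 6 kept their calls with any 1 library left out. As families, also picked after the values were seen, 2 of 9 annexins and 2 of 8 S100A genes fell and none rose. Of all genes tested 1.62% fell. The annexins had 4 positive differences, up to 0.66, and a median of -0.25. The S100A genes had 1 positive difference and a median of -0.37.

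The leukotriene B4 receptor Ltb4r1 was at 8.74, 8.61 and 8.98 against 10.25, 9.97 and 10.19 (-1.36 ± 0.14, limma adjusted p = 0.0015). Alox5ap, chosen after its values were seen, which presents arachidonic acid to the enzyme that makes leukotrienes, was at 12.33, 12.32 and 12.52 against 13.29, 13.31 and 13.31 (-0.91 ± 0.13, adjusted p = 0.0058). The reads of Alox5ap and of its antisense neighbour Gm19719, which fell by 0.92, may not be separable. Of the 5 tested members of the Ifitm family, taken whole by symbol after its values were seen, which are membrane proteins that restrict virus entry, 4 fell, and the family median was -0.87. Ifitm6 was at 9.28, 9.29 and 9.28 against 10.31, 10.35 and 10.38. The interferon-stimulated list as a whole had 0 of 24 genes past the threshold by limma, 5 at an unadjusted p under 0.05 and a median of -0.24.

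All 3 D-type cyclins fell: Ccnd2 (-0.99 ± 0.20), Ccnd3 (-0.92 ± 0.15) and Ccnd1 (-0.89 ± 0.20), with limma adjusted p from 0.010 to 0.037. They were chosen after their values were seen, and only Ccnd3 kept its call with any 1 library left out. Of 30 cell cycle genes, 5 fell, the median was -0.38, and 1 difference was positive. The proliferation antigen Mki67 was at 9.88, 9.04 and 9.75 against 10.67, 10.48 and 10.88 (-1.12 ± 0.23, adjusted p = 0.026). None of the 5 kept its call in all 6 such runs.

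Sterol synthesis genes were slightly lower. Of 23 tested 3 fell, none rose, 20 differences were negative and the median was -0.34. Hmgcs1, an early enzyme of the pathway, was at 10.16, 10.66 and 10.49 against 11.08, 11.50 and 10.90 (-0.72 ± 0.17, limma adjusted p = 0.043). Squalene epoxidase, Sqle, was at 9.85, 10.12 and 9.95 against 10.69, 10.67 and 10.48 (-0.64 ± 0.13, adjusted p = 0.028). The other call is not reported by name. Of the 3 calls at most 1 was left when any 1 library was dropped.

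Lists of uptake and degradation genes held few calls each, where 2.95% of all genes tested were called. In lists this short, such counts are read neither as a difference from that share nor as a lack of one. Of 22 endocytosis and early endosome genes only the sorting nexin Snx5 passed (0.56 ± 0.12, limma adjusted p = 0.032), and the median was 0.0019. Of 30 lysosomal genes only the peptidase Tpp1 passed (0.46 ± 0.10), with a median of 0.13, and 10 had an unadjusted p under 0.05, 8 of them higher. Of 15 cathepsins Ctso rose and Ctsw, also in the NK list, fell, and 7 had an unadjusted p under 0.05, 5 of them higher. The sorting nexin family, taken whole by symbol after its values were seen, had 4 of 29 members higher and none lower. Of the 29 differences 17 were positive, the median was 0.056 and the lowest was -0.55. Of 23 scavenger and efferocytosis receptors Marco and Mertk (1.43 ± 0.32, adjusted p = 0.040) rose and none fell, with a median of 0.17. The Mertk call was kept in 1 of the 6 runs that leave out a library, the one without DiI-positive replicate 1. The phagosome oxidase and antimicrobial list (12 genes), NRF2 targets (19), immediate early and stress genes (24) and fatty acid oxidation genes (18) had 0 called by limma. At an unadjusted p under 0.05 these lists had 0, 4, 3 and 3 genes. Of 23 phospholipid turnover genes Gdpd1 and Pld3 rose and Plbd1 fell. The endolysosomal cation channel Mcoln2, outside these lists, was at 10.97, 10.90 and 10.73 against 9.65, 9.50 and 9.15 (1.44 ± 0.22, adjusted p = 0.0080). A gene that misses the threshold with 3 libraries a gate is not thereby shown to be equal.

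Adm, which encodes the vasodilator peptide adrenomedullin, was at 8.0, 7.50 and 7.53 against 6.03, 5.83 and 6.04 (1.71 ± 0.15, limma adjusted p = 0.00088). It was 1.33 ± 0.15 after curcumin liposomes and kept its call in all 18 alternatives. Mmp12, the macrophage elastase, was at 11.32, 11.66 and 11.95 against 9.82, 9.95 and 9.46 (1.90 ± 0.28, adjusted p = 0.0072). Igf1, insulin-like growth factor 1, was at 10.24, 10.31 and 10.69 against 9.06, 8.47 and 8.97 (1.58 ± 0.26, adjusted p = 0.011). The stress cytokine Gdf15 (1.08 ± 0.14), the epoxide hydrolase Ephx1 (1.20 ± 0.17) and the nucleotide receptor P2ry12 (0.97 ± 0.15), chosen after their values were seen, rose and kept their calls with any 1 library left out. Nid1, a basement membrane protein, was at 9.58, 9.20 and 9.41 against 6.38, 8.18 and 6.77, where DiI-negative replicate 2 stood apart from its group (2.29 ± 0.42, adjusted p = 0.016, lost in 4 of the 6 runs that leave out a library). Ltk, a receptor tyrosine kinase, was at 8.0, 7.81 and 7.51 against 5.88, 6.81 and 5.89 (1.58 ± 0.29, adjusted p = 0.015), and was -0.07 ± 0.29 after curcumin liposomes. The Ltk call was lost in 4 of the 6 runs, among them 1.42 without DiI-negative replicate 1 (adjusted p = 0.073).

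The threshold was passed by 419 of 14227 genes (2.95%), of which 188 were higher (1.32%) and 231 lower (1.62%) in dye-carrying cells, and for each of them the 3 libraries of one gate lay outside those of the other. A first principal component with 46.5% of the variance over the 6 libraries separated the gates, and the next, with 18.5%, set DiI-positive replicate 2 apart. Of the 419 genes, 102 were in one of the 49 gene lists. Genes that stayed past the threshold with any 1 library left out numbered 70, of which 31 were higher and 39 lower. With 1 library left out, the count was lowest without DiI-negative replicate 1, 85, and highest without DiI-positive replicate 3, 263. The relative depth index ran from 0.821 to 1.15 in DiI-positive and from 1.03 to 1.33 in DiI-negative libraries, which overlap, and fitting the index as a covariate gave 121 genes. Without the shallowest library, DiI-positive replicate 2, and the deepest, DiI-negative replicate 1, 3 genes passed. All 419 kept their direction in each alternative in which they were tested. Where only libraries were left out this was fixed beforehand, because the gates did not overlap for any of these genes. A change of filter alone also leaves the difference as it was.

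The curcumin liposome libraries, which share no library with these 6, gave the same direction for 183 of the 188 higher genes and for all 231 lower ones. The median difference of the higher genes was 0.94 after empty and 0.79 after curcumin liposomes, and that of the lower genes -0.83 and -0.73. Past the threshold after curcumin liposomes as well, in the same direction, were 97 of the 188 higher and 125 of the 231 lower genes. There, 3.07% of all genes tested were called. The share of all genes tested with the same direction after both liposomes is not given here. The 5 genes with the opposite sign, chosen for that, were Ltk, Fras1, Zfp867, Sapcd1 and the clone AI854703. Both contrasts come from 1 fit with a shared spread, and no difference between them passed.

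**Figure D5:**
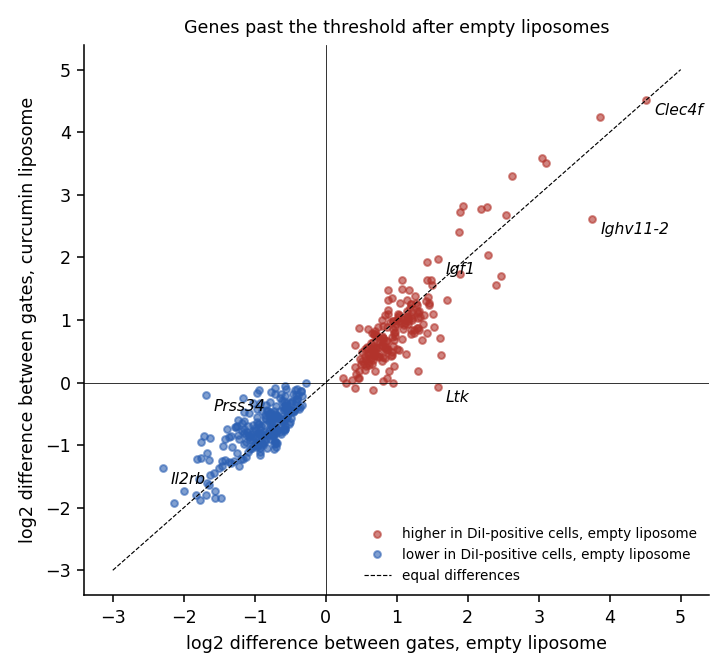
Log2 difference between the gates (DiI-positive minus DiI-negative) after curcumin liposomes (y axis) against that after empty liposomes (x axis) for the 419 genes called after empty liposomes (red: 188 higher; blue: 231 lower; dashed line: equal differences). Clec4f lies on the line at 4.52, Ighv11-2 lies below it (3.76 and 2.62), and Ltk and Prss34 lie near 0 after curcumin.

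Some called genes lie side by side and may share reads. Start sites of called genes within 50 kb of each other formed 27 groups, and in 24 of them all members moved one way. They include the T cell receptor beta genes, the Klrb1 and Klrd1 receptor genes, Cd55 with 2 numbered genes beside it, and Cd81 with its neighbour R74862. The proton channel Hvcn1 (13.91, 14.06 and 13.77 against 12.73, 13.14 and 13.03) and Tctn1 (0.94 ± 0.21 for each) had almost the same values in every library. The sources used here do not say how reads from overlapping genes were assigned, so the members of such groups are uncertain as separate findings.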

How the data were processed

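The authors deposited 1 table of gene-level log2 values per library code. The submitters' processing notes name the GRCm38 build, STAR 2.4.0d and DESeq2 1.8.1. No read counter, annotation or transform is named in the sources used here. The deposited values run from -3.62 to 19.4 and shrink towards 0 differences at low levels. Read totals are not in the values, so depth is given as a relative index, derived from the value steps of genes with few counts, which differed 1.62-fold between the deepest and shallowest of the 6 libraries. Each code, shared by 2 sample records, counted as 1 library.

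limma 3.58.1 in R 4.3.3 was fitted to all 12 libraries with a mean per group (8 residual and 3.51 prior degrees of freedom, prior variance following the mean), and Benjamini-Hochberg adjusted p under 0.05 was the threshold over 14227 genes. The code was tested on simulated data. Gene names came from GENCODE M21 for 99.3% of the genes not at 0, and 20918 genes at 0 in every library were left out. Deviations of same-numbered libraries of the 2 gates had r of 0.0787, 0.00372 and 0.0759, against -0.0833 to 0.00257 for differently numbered ones. All of these are small, but they do not settle whether the numbers mark pairs. The main fit did not use the numbers, and a fit with replicate number as a block gave 405 genes.

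Genes named were the 30 largest rises and falls among called genes with an official symbol (segments of antigen receptors apart), the 10 smallest p, up to 8 members of each list with the smallest p, and the genes of the sorting gate; others are marked. The comparison, the lists and the naming rule were chosen with earlier results of these data known. Lists are described by counts and medians, and some of their genes are not reported here. Alternatives changed the filter, the variance model, normalization, the depth covariate and the libraries used.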

Additional observations from a re-analysis of the deposited data

Results flagged for a closer look

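Mpeg1, a pore-forming protein of macrophages, was picked out because its libraries moved opposite ways under the 2 liposomes without overlap in either. It was at 12.21, 12.31 and 12.53 in DiI-positive and 12.10, 12.11 and 12.20 in DiI-negative cells after empty liposomes (0.21 ± 0.14, limma adjusted p = 0.49), and differed by -0.36 ± 0.14 after curcumin liposomes. The difference between the 2 effects was 0.573, and no gene passed its limma test (smallest adjusted p = 0.999).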

How the results depend on the processing

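The count of 419 genes (188 higher, 231 lower) was 263 with no filter (117 and 146), 121 with the depth index as a covariate (50 and 71) and 789 with library weights (387 and 402). It was 617 with only the 6 empty liposome libraries fitted, 288 of them higher. With 1 library left out it ran from 85 to 263, with 38 to 122 higher and 47 to 141 lower. Without the shallowest and the deepest library, chosen after seeing the data, it was 3, with 3 higher and 0 lower. With the replicate number as a block it was 405, the other scalings and variance models gave 391 to 459, and a filter at a mean log2 value of 6 gave 486. The directions of the 419 genes were the same under each in which they were tested. For runs that only leave out libraries, the lack of overlap between the gates fixed this beforehand. The median of Kupffer transcription factors (0.103) became -0.024 with the depth index, -0.021 without the shallowest and the deepest library, and ran from -0.10 to 0.118 with 1 library left out (-0.064 without DiI-positive replicate 3). The MHC class II median (0.030) ran from -0.026 (without DiI-negative replicate 1) to 0.0906 with 1 library left out and was -0.00700 without the shallowest and the deepest library, and that of stellate and fibroblast genes (-0.25) was 5.9e-06 with no filter. The cause was not tested. Precision rests on 3 libraries a gate, and low genes are limited by the shrunken scale.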
